A study of Mus musculus with 6 samples.

Results

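A set of 10 genes of the Wnt family are described here, 4 that encode Wnt ligands (Wnt4, Wnt5a, Wnt5b and Wnt11) and 6 that encode secreted antagonists of Wnt signalling (Frzb, Sfrp1, Sfrp5, Dkk1, Dkk3 and Wif1). They were taken by name. Every non-control probe whose RefSeq accession belongs to the listed symbols was read, which gave 10 probes, 1 per gene, among 26582 probes of 20145 named mouse genes. All 10 entered the tests with 19122 genes in all. Dkk3 entered only because its probe was well above background in WT.

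The series asked about the part that the ER stress transducer ATF6 plays in long bone growth. RNA came from the tibial growth plate, cut out by laser, of male C57BL/6J mice that were 4 weeks old and untreated. The genotypes were ATF6aKO, ATF6bKO and WT, with 2 arrays each. ATF6a (gene Atf6) and ATF6b (gene Atf6b) are membrane-bound transcription factors of the endoplasmic reticulum that are cut free under ER stress. How the knockouts were made, and whether the deletions act in every cell, is not given in the sources used here. The labels leave unsaid if replicate arrays stand for separate animals, so each p-value reflects the scatter among arrays alone, and that scatter may be technical.

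Wnt proteins are secreted lipid-modified signals that bind Frizzled receptors. With the co-receptors LRP5 and LRP6 they stabilise beta-catenin, which acts with TCF/LEF factors in the nucleus, and through other receptors such as ROR2 they steer cell polarity and movement without beta-catenin. Secreted antagonists work outside the cell, either by holding the Wnt protein (the SFRP family, including Frzb, and Wif1) or by blocking LRP5 and LRP6 (Dkk1). In the mouse growth plate Wnt5a and Wnt5b are known to set the pace at which chondrocytes pass from one zone to the next, and beta-catenin signalling promotes their maturation to hypertrophy.

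Promoters are shown because ATF6 acts by binding DNA and because Wnt targets carry TCF/LEF sites. RefSeq windows of build GRCm38.p6, covering the 250 bases before a transcription start, were found for 7 of the 10 genes, with 10 windows in all. Wnt5a, Sfrp1 and Dkk3 had none. Both strands were searched for the ER stress response element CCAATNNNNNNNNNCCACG, the ATF6 core TGACGTG and the TCF/LEF core CTTTGA. The 3 windows printed hold the ATF6 core, the TCF/LEF core of the antagonist Frzb, and the only pair of TCF/LEF cores. Capitals mark the matches, and TCAAAG is CTTTGA read on the other strand. No 2 matches overlapped. Wnt11 lies at chr7:98834862-98835111 (plus strand, the first of 2 windows), Frzb at chr2:80447397-80447646 (minus strand) and Dkk1 at chr19:30549497-30549746 (minus strand).
Wnt11: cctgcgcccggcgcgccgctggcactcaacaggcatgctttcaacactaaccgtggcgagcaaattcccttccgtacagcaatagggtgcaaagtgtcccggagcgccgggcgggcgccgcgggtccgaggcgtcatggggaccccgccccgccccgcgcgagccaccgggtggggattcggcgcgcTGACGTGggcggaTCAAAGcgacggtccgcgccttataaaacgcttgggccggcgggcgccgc
Frzb: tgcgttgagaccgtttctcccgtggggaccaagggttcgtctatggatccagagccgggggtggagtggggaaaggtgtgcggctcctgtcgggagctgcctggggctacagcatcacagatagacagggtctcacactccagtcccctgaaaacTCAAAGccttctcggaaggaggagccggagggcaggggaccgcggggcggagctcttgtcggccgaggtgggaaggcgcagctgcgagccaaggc
Dkk1: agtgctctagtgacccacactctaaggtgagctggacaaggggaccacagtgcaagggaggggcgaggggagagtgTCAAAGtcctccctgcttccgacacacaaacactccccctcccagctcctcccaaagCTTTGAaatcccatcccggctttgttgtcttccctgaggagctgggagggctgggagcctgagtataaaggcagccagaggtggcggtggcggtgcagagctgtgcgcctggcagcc
The ER stress response element was in 0 of the 10 windows, against 0.113% of all 32851 windows of the same length. The ATF6 core was in 1 window, that of Wnt11, at -63 to -57 from the start, against 1.65% of all windows. The TCF/LEF core was in 4 windows, of Wnt5b, Wnt11, Frzb and Dkk1, against 13.8% of all windows. A match describes these letters only, and a window without one says nothing about binding.

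Each array held 62976 spots, and between 86.9% and 96.7% of the non-control spots were well above background. The 4 knockout arrays shared 1 slide and were scanned with 2 channels, whereas the 2 WT arrays shared another slide and were scanned with 1 channel. The red channel was read for the knockouts and the only channel, named green, for WT. Slide, scan, channel and genotype therefore cannot be told apart when a knockout is set against WT. The 2 knockouts alone can be compared on 1 slide. Knockout arrays correlated with each other at r of 0.9704 to 0.9881 across probes, and with WT arrays at 0.8508 to 0.9057. The probes for Atf6 and Atf6b did not show the loss of the targeted gene. Atf6 measured 7.02 ± 0.07 in ATF6aKO and 7.17 ± 0.17 in WT (normalised log2 intensity, SD, n = 2; limma adjusted p = 0.498). Atf6b measured 8.59 ± 0.25 in ATF6bKO and 9.13 ± 0.10 in WT (limma adjusted p = 0.0824), and where these probes lie relative to the deletions is not given. A knockout name below therefore means the arrays labelled so. The defining chondrocyte markers Col2a1, Acan, Matn1, Col9a1, Col11a1, Comp and Hapln1 were well above background in every genotype. Sox9 was well above background on neither WT array and on only 1 ATF6bKO array. Most spots of any kind were well above background, so this does not test the tissue label.

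On all 6 arrays 9 of the 10 genes lay well above background, and 0 spots of the 10 were saturated or marked as outliers. The exception was Dkk3. Spot intensities are given first as scanned, before any normalisation. Wnt5a gave 4216 and 3990 in ATF6aKO, 3372 and 3258 in ATF6bKO, against 9277.5 and 8972.5 in WT. The median background was 37 for each knockout array and 17 for each WT array. Dkk3 gave 51 and 61 in ATF6aKO, 50 and 48 in ATF6bKO, against 66 and 59 in WT, so its knockout spots lay close to the background. The WT arrays were brighter as a whole, and all levels below are log2 intensities after quantile normalisation. Levels of different probes are not set against each other.

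**Figure D1:**
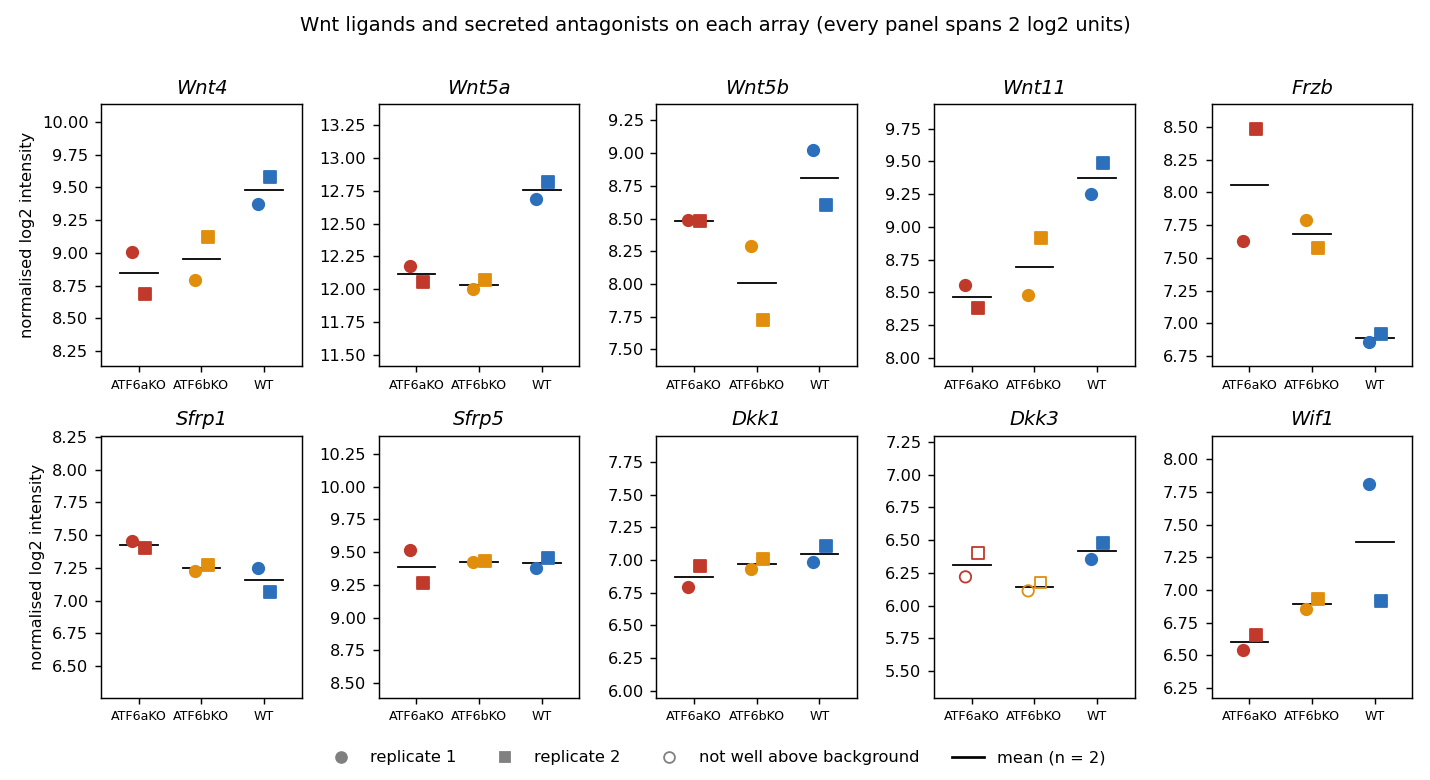
Normalised log2 intensity (vertical axis, each panel spanning 2 log2 units) of the 10 genes on every array, by genotype. Circles are replicate 1, squares replicate 2, open symbols spots not well above background, and black lines means of 2 arrays. The 4 ligands of the first panels lie below WT on every knockout array, Frzb lies above WT on every knockout array, and Wif1 is high on WT replicate 1 alone.

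The 4 ligands were lower in both knockouts on every array, and 3 of the 4 passed the test in each comparison with WT. Their median log2 difference was -0.63 in ATF6aKO and -0.70 in ATF6bKO. Over all 19122 genes the median was -0.03 in ATF6aKO and -0.05 in ATF6bKO. The comparisons use the same WT arrays and are not independent of each other. The share of all genes called at a limma adjusted p under 0.05 was 42.7% for ATF6aKO against WT (22.3% lower) and 37.6% for ATF6bKO against WT (20.3% lower). Of the 10 genes, 4 were called in ATF6aKO (1 higher, 3 lower) and 3 in ATF6bKO (0 higher, 3 lower), which is near that background. In ATF6aKO the arrays did not overlap WT in 6 of the 10 downward and 2 upward, where all genes gave 38.6% downward and 34.6% upward. In ATF6bKO the counts were 5 downward and 1 upward, where all genes gave 39.5% downward and 33.3% upward.

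Wnt5a, the ligand best known for signalling without beta-catenin, measured 12.18 and 12.05 in ATF6aKO, 12.00 and 12.07 in ATF6bKO, against 12.69 and 12.82 in WT. Every knockout array was below both WT arrays, and replicates lay close together. Wnt5a fell by 0.64 ± 0.16 log2 units in ATF6aKO (SE, n = 2 per genotype; limma adjusted p = 0.0150), a 1.56-fold difference. It fell by 0.72 ± 0.16 in ATF6bKO (limma adjusted p = 0.0110). Without ATF6aKO replicate 2 or WT replicate 2 the call in ATF6aKO was lost (limma adjusted p = 0.0689 and 0.0622), and without either ATF6bKO array that in ATF6bKO was lost (0.0802 and 0.0571).

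Wnt5b, its close paralog, is expressed in prehypertrophic chondrocytes in mice. It measured 8.49 and 8.48 in ATF6aKO, 8.29 and 7.72 in ATF6bKO, against 9.02 and 8.60 in WT. The ATF6aKO arrays were nearly identical, whereas the ATF6bKO arrays were 0.569 log2 units apart, a wider gap than 95.9% of all genes showed between those 2 arrays. The difference from WT was -0.33 ± 0.24 in ATF6aKO (SE; limma adjusted p = 0.291; 95% interval -0.88 to 0.22). Wnt5b fell by 0.81 ± 0.24 in ATF6bKO (limma adjusted p = 0.0315), a 1.75-fold difference. That call was lost without ATF6bKO replicate 2 or WT replicate 1. Leaving out either ATF6aKO array ended it too, but this leaves the difference as it is and changes only the estimate of the spread.

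Wnt11, a ligand of cell movement and polarity, had the largest fall of the 4 ligands in ATF6aKO. It measured 8.55 and 8.38 in ATF6aKO, 8.48 and 8.91 in ATF6bKO, against 9.25 and 9.49 in WT. No knockout array reached the WT arrays. Wnt11 fell by 0.91 ± 0.20 in ATF6aKO (SE; limma adjusted p = 0.0102), a 1.87-fold difference, and by 0.68 ± 0.20 in ATF6bKO (limma adjusted p = 0.0336). Its promoter window is the printed one with the ATF6 core. The call in ATF6aKO was lost without ATF6aKO replicate 2 (limma adjusted p = 0.0654), and that in ATF6bKO without ATF6bKO replicate 1 (0.215) or WT replicate 2 (0.109).

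Wnt4, which promotes chondrocyte maturation in chick and mouse, measured 9.01 and 8.69 in ATF6aKO, 8.79 and 9.12 in ATF6bKO, against 9.38 and 9.58 in WT. The knockout arrays were all lower than WT, with the 2 knockouts overlapping each other. Wnt4 fell by 0.63 ± 0.20 in ATF6aKO (SE; limma adjusted p = 0.0363). Its difference in ATF6bKO was -0.52 ± 0.20 (limma adjusted p = 0.0729; 95% interval -0.98 to -0.06). The call in ATF6aKO was lost without ATF6aKO replicate 2, where the difference was -0.47, and without WT replicate 2. Leaving out either ATF6bKO array ended it too, but there the difference stayed at -0.63 and only the estimate of the spread changed. With the replicate number as a block (limma adjusted p = 0.0549) and from the processed signal (0.0971) the call was also lost.

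Among the antagonists, Frzb was the only gene called. It was called in ATF6aKO and did not pass in ATF6bKO. The 6 antagonists had a median log2 difference of -0.07 in ATF6aKO and -0.03 in ATF6bKO. Frzb, which was first purified from cartilage and binds Wnt through a Frizzled-like domain, measured 7.63 and 8.48 in ATF6aKO, 7.79 and 7.57 in ATF6bKO, against 6.86 and 6.92 in WT. Every knockout array was above WT, and ATF6aKO replicate 2 stood highest. The 2 ATF6aKO arrays were 0.859 log2 units apart, more than 98.2% of all genes. Frzb rose by 1.17 ± 0.27 in ATF6aKO (SE; limma adjusted p = 0.0123), a 2.25-fold difference. The rise was 0.74 without ATF6aKO replicate 2 (limma adjusted p = 0.0435) and 1.60 without ATF6aKO replicate 1 (0.00627). In ATF6bKO the difference was 0.79 ± 0.27 (limma adjusted p = 0.0547), and 75th percentile scaling gave 1.06 (limma adjusted p = 0.0175).

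Most chondrocyte markers moved in the same direction as Frzb. In ATF6aKO, 7 of the 8 markers were called higher than in WT and 0 lower, where 20.3% of all genes were higher. In ATF6bKO 5 were called higher and 1 lower, where 17.3% of all genes were higher. The lower marker was Comp, at -1.13 in ATF6bKO (limma adjusted p = 0.0430). Summed over the list, their normalised intensities came to 82889 and 90705 in ATF6aKO, 51367 and 23543 in ATF6bKO, against 12793 and 16589 in WT. Col2a1, the main collagen of cartilage, rose by 4.19 ± 0.37 log2 units in ATF6aKO (SE; limma adjusted p = 0.000622) and by 2.86 ± 0.37 in ATF6bKO (limma adjusted p = 0.00177). Of the 7 endothelial markers 3 were lower, 0 higher and 4 not called in each knockout, where 22.3% of all genes were lower in ATF6aKO and 20.3% in ATF6bKO. Their summed intensities were 2199 and 1821 in ATF6aKO, 1991 and 2099 in ATF6bKO, against 4212 and 4122 in WT. Of the 5 erythroid markers tested, 3 were lower and 0 higher in each knockout. Of the 6 hypertrophic chondrocyte markers, 3 were higher and 0 lower in ATF6aKO, where 20.3% of all genes were higher. In ATF6bKO 2 of them were higher and 0 lower, where 17.3% of all genes were higher. Their summed intensities differed widely between replicates, at 7188 and 18320 in ATF6aKO, 7637 and 2783 in ATF6bKO, against 16820 and 1206 in WT. The part of these cells in the ligand and Frzb differences was not tested. In tissue RNA, fewer cells of a type and less RNA per cell cannot be told apart.

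Wif1, which holds Wnt proteins through its own WIF domain, measured 6.54 and 6.66 in ATF6aKO, 6.86 and 6.93 in ATF6bKO, against 7.81 and 6.92 in WT. WT replicate 1 was high, and WT replicate 2 lay between the ATF6bKO arrays. Its difference was -0.77 ± 0.28 in ATF6aKO (SE; limma adjusted p = 0.0582) and -0.47 ± 0.28 in ATF6bKO (limma adjusted p = 0.218). Without WT replicate 1 the difference was -0.32 in ATF6aKO (limma adjusted p = 0.258) and -0.02 in ATF6bKO (0.947). Without WT replicate 2 it was -1.21 in ATF6aKO (limma adjusted p = 0.00219) and -0.92 in ATF6bKO (0.00938). WT replicate 1 also had the highest summed osteoblast markers, at 5460 and 7415 in ATF6aKO, 4874 and 2475 in ATF6bKO, against 82399 and 2289 in WT. Osteoclast markers summed to 1920 and 1868 in ATF6aKO, 1706 and 2124 in ATF6bKO, against 17230 and 2708 in WT, and erythroid markers to 851 and 719 in ATF6aKO, 832 and 846 in ATF6bKO, against 30936 and 5294 in WT. Their part in the Wif1 difference was not tested.

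The other antagonists gave no call in either knockout. Sfrp1, which binds Wnt proteins like Frzb, measured 7.45 and 7.40 in ATF6aKO, 7.22 and 7.27 in ATF6bKO, against 7.25 and 7.06 in WT. Its ATF6aKO arrays lay above WT, at a difference of 0.27 ± 0.16 (SE; limma adjusted p = 0.200), and its ATF6bKO arrays overlapped WT, at 0.09 ± 0.16 (limma adjusted p = 0.672). Sfrp5, a relative of Sfrp1, measured 9.51 and 9.26 in ATF6aKO, 9.43 and 9.43 in ATF6bKO, against 9.38 and 9.46 in WT. The genotypes overlapped, and the differences were -0.03 (95% interval -0.41 to 0.35) in ATF6aKO and 0.01 (-0.37 to 0.39) in ATF6bKO.

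Dkk1, the blocker of LRP5 and LRP6 and itself a beta-catenin target, measured 6.79 and 6.95 in ATF6aKO, 6.93 and 7.01 in ATF6bKO, against 6.98 and 7.10 in WT. The values were close in every genotype, at -0.17 (95% interval -0.54 to 0.20) in ATF6aKO and -0.07 (-0.44 to 0.30) in ATF6bKO, and both signs turned under 75th percentile scaling. Dkk3, a divergent Dickkopf protein, measured 6.22 and 6.40 in ATF6aKO, 6.11 and 6.18 in ATF6bKO, against 6.36 and 6.48 in WT. It was not well above background on any knockout array, and its probe entered the tests only through WT, so no fall can be claimed. The bound on its fold was 1.08 in ATF6aKO, the same as the measured fold, and 1.19 in ATF6bKO. The measured differences were -0.11 in ATF6aKO and -0.27 in ATF6bKO (limma adjusted p = 0.610 and 0.214). Their 95% intervals ran from -0.48 to 0.27 in ATF6aKO and from -0.65 to 0.10 in ATF6bKO. Both differences changed sign under 75th percentile scaling.

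**Figure D2:**
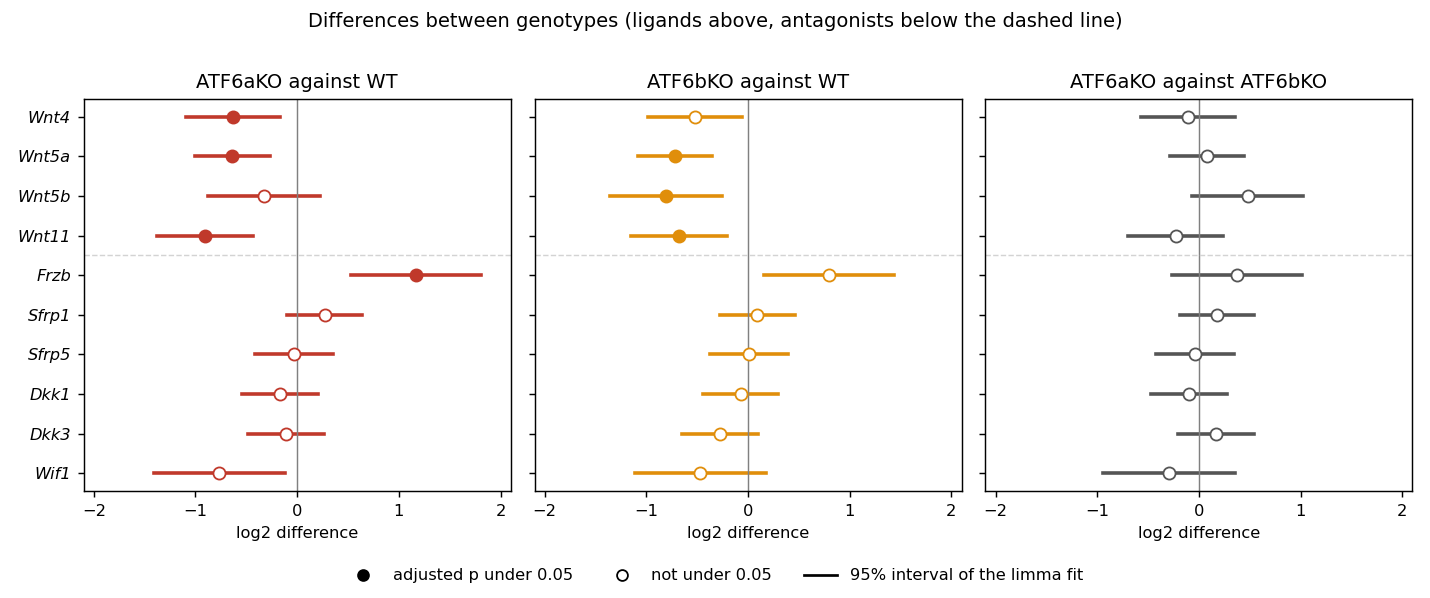
Log2 difference (horizontal axis) of each gene in the 3 comparisons, with 95% intervals of the limma fit, ligands above and antagonists below the dashed line. Filled points have an adjusted p under 0.05. The calls are Wnt4, Wnt5a, Wnt11 and Frzb in ATF6aKO, Wnt5a, Wnt5b and Wnt11 in ATF6bKO, and none between the knockouts.

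Between the knockouts, on 1 slide, 0 of the 10 genes and 0% of all 19122 genes were called by limma. At an unadjusted p under 0.05, 1169 of all genes passed and 0 of these 10. The widest difference among the 10 was in Wnt5b, 0.48 ± 0.24 (SE; limma adjusted p = 0.862; 95% interval -0.07 to 1.03). Frzb followed at 0.37 ± 0.27 (95% interval -0.26 to 1.01), Wif1 at -0.30 ± 0.28 (-0.94 to 0.35) and Wnt11 at -0.23 ± 0.20 (-0.70 to 0.24). The arrays did not overlap in Wnt5b, Sfrp1 and Dkk3, higher in ATF6aKO, and in Wif1, lower in ATF6aKO. Such separation was found in 20.1% of all genes upward and 16.9% downward. Dkk3 was not well above background on any knockout array, so its order between the knockouts carries no meaning.

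**Figure D3:**
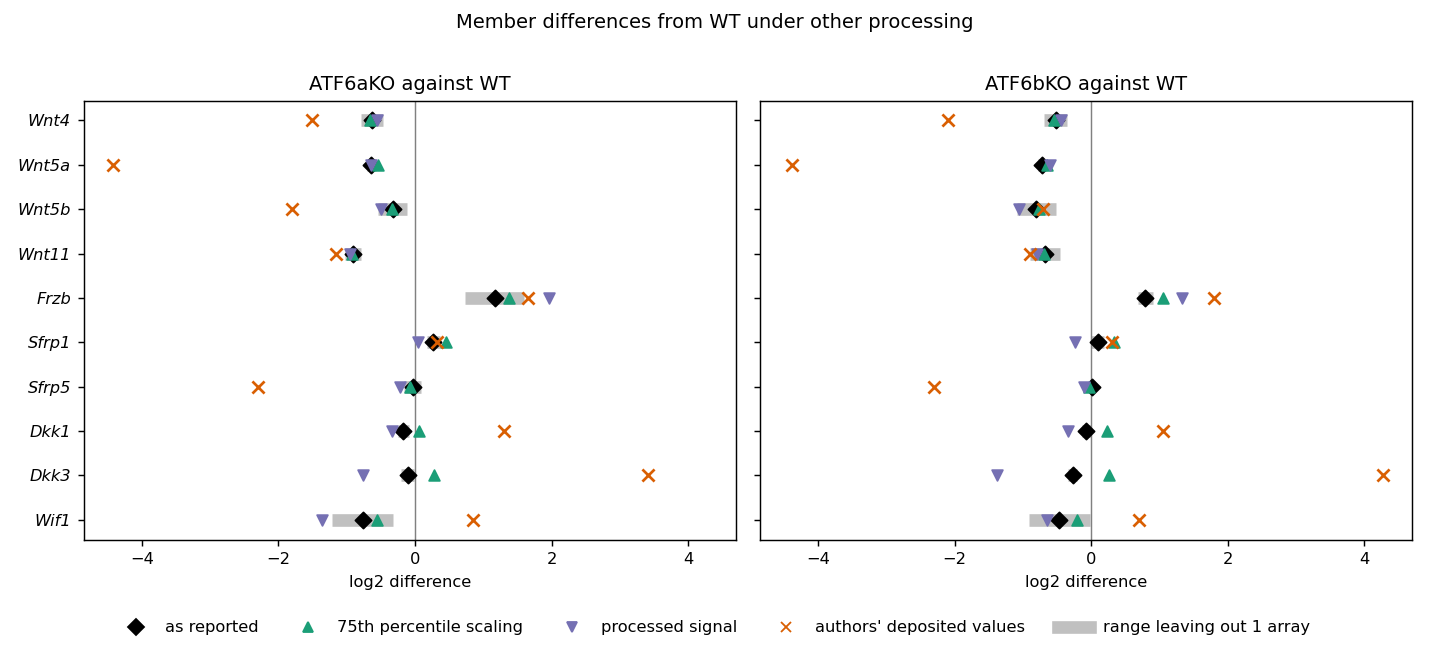
Log2 difference from WT (horizontal axis) of each gene as reported and under 75th percentile scaling, the processed signal and the authors' deposited values, with a grey bar for the range when 1 array is left out. The ligands stay negative under every setting shown and Frzb stays positive, while each of the other 5 antagonists lies on both sides of 0 in at least 1 panel. The deposited values of the knockouts follow the green channel, where 0 of 40 spots were well above background, so their signs are not counted as support.

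Against WT, the 4 ligands kept their negative sign and Frzb its positive sign under all settings tried. The authors' deposited table gives much wider values, such as -4.42 for Wnt5a in ATF6aKO and 4.27 for Dkk3 in ATF6bKO. Its knockout columns follow the green channel (r of 0.9989 to 0.9993 for differences between arrays), not the labelled red channel (r of 0.0381 to 0.0673). In that channel 0 of the 40 knockout spots of these genes were well above background, with intensities of 17.5 to 27. The signs in that table are therefore not counted as support. In that table the calls of Wnt11 in ATF6aKO and ATF6bKO and of Wnt5b in ATF6bKO were lost (limma adjusted p = 0.253, 0.360 and 0.396).

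For the 9 members well above background on every array, thus without Dkk3, the gene whose level ran most closely with each over the 6 arrays was found by the root mean square difference of centred log2 values. They were Heph for Wnt4 (0.0238), Tmem174 for Wnt5a (0.0336), Scfd1 for Wnt5b (0.0945), Stom for Wnt11 (0.0358), Idi1 for Frzb (0.0568), Zfp488 for Sfrp1 (0.0265), Stap2 for Sfrp5 (0.0215), Nanog for Dkk1 (0.0177) and Cyp1b1 for Wif1 (0.0698). Each was picked as the closest of all genes tested, over only 6 arrays. The distance between unrelated genes was not computed, so the pairs are not read as regulated together.

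The rest of the pathway was read from lists of other Wnt genes, with values given as log2 differences from WT. For each count below, the share over all genes was 20.3% higher and 22.3% lower in ATF6aKO, and 17.3% higher and 20.3% lower in ATF6bKO. Of the other Wnt ligands, 1 of 14 tested was higher and 3 were lower in each knockout. Wnt9b fell by 1.05 in ATF6aKO and by 1.05 in ATF6bKO (limma adjusted p = 0.00352 and 0.00420), Wnt7b fell by 0.84 in ATF6aKO and by 0.71 in ATF6bKO, and Wnt10b rose by 0.76 in ATF6aKO and by 0.68 in ATF6bKO. The list's median was -0.06 in ATF6aKO and -0.07 in ATF6bKO, beside -0.63 in ATF6aKO and -0.70 in ATF6bKO for the 4 ligands described. Of the 8 other secreted antagonists, 3 were higher and 3 lower in ATF6aKO, and 3 higher and 1 lower in ATF6bKO. Sfrp4 rose by 1.17 in ATF6aKO and by 1.11 in ATF6bKO, and Sfrp2 rose by 0.72 in ATF6aKO and by 0.93 in ATF6bKO. Dkk4 fell by 1.04 in ATF6aKO and by 0.82 in ATF6bKO, and Sostdc1 fell by 0.65 in ATF6aKO (limma adjusted p = 0.0448), while its value in ATF6bKO was -0.62 (limma adjusted p = 0.0583). Sost, the osteocyte antagonist sclerostin, gave -0.14 in ATF6aKO and -0.05 in ATF6bKO (limma adjusted p = 0.562 and 0.854).

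**Figure D4:**
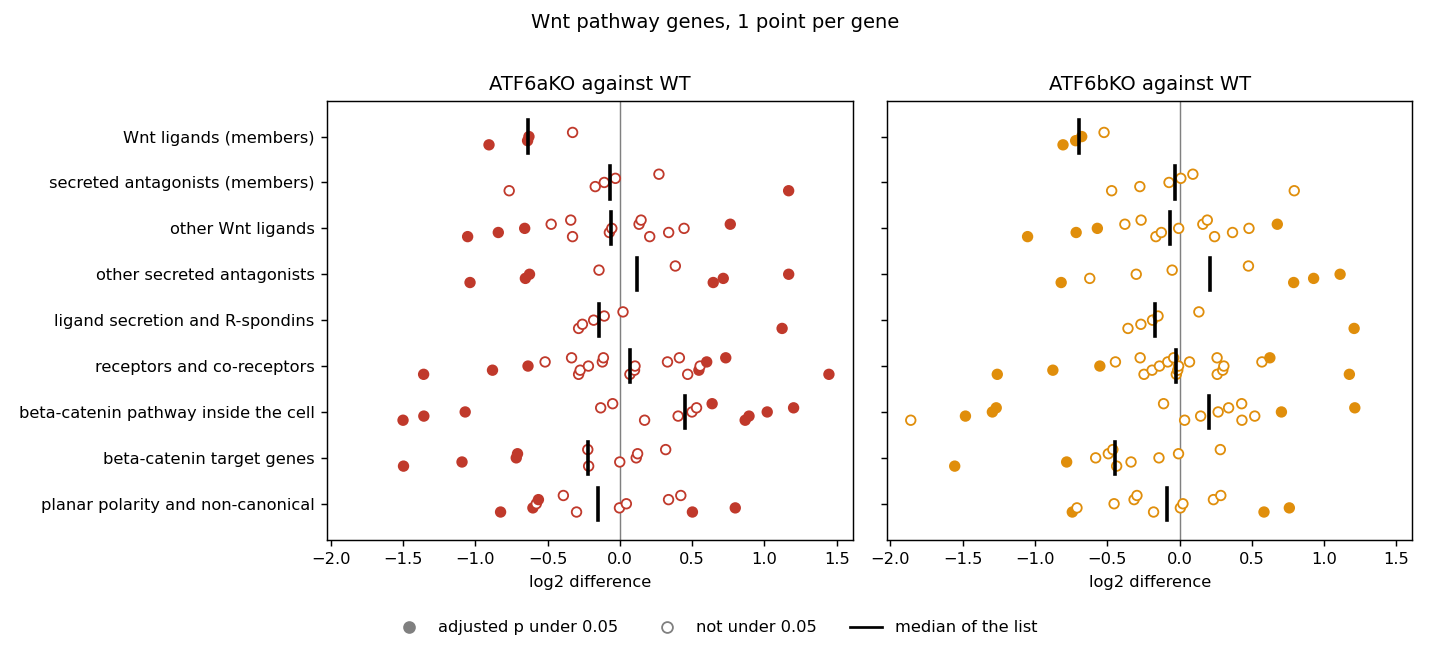
Log2 difference from WT (horizontal axis) of each gene of the Wnt pathway, 1 point per gene, by list, with the list's median as a black line and filled points for an adjusted p under 0.05. Most lists hold calls on both sides of 0, while the calls among the ligand members and the beta-catenin target genes lie below 0.

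Of the 6 tested genes for ligand release and R-spondins, 1 was higher in each knockout. This was Rspo3, a secreted amplifier of Wnt signals, which rose by 1.12 in ATF6aKO and by 1.21 in ATF6bKO. Wls, the carrier that brings Wnt proteins to the cell surface, gave 0.02 in ATF6aKO and -0.36 in ATF6bKO (limma adjusted p = 0.937 and 0.195). Of the 21 receptors and co-receptors tested, 4 were higher and 3 lower in ATF6aKO, and 2 higher and 3 lower in ATF6bKO. The Frizzled receptor Fzd2 rose by 1.45 in ATF6aKO and by 1.17 in ATF6bKO. With the mean over its probes Fzd2 gave 0.34 in ATF6aKO and -0.07 in ATF6bKO, neither called. The polarity co-receptor Ptk7 fell by 1.36 in ATF6aKO and by 1.26 in ATF6bKO. Znrf3, which removes Frizzled from the surface, fell by 0.88 in each. Ror2, a receptor for Wnt5a, rose by 0.73 in ATF6aKO (limma adjusted p = 0.0402), and gave -0.01 in ATF6bKO. Fzd4 rose by 0.60 in ATF6aKO and by 0.62 in ATF6bKO. Lrp6 gave 0.33 in ATF6aKO and 0.26 in ATF6bKO (limma adjusted p = 0.120 and 0.218), and Lrp5 had no probe kept.

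Inside the cell, 5 of 14 genes of the beta-catenin pathway were higher and 3 lower in ATF6aKO, and 2 higher and 3 lower in ATF6bKO. Gsk3a, a kinase that marks beta-catenin for removal, rose by 1.20 in ATF6aKO and gave 0.43 in ATF6bKO (limma adjusted p = 0.176). Btrc, which targets it for destruction, rose by 1.02 in ATF6aKO and by 1.21 in ATF6bKO. Gsk3b rose by 0.89 in ATF6aKO and by 0.70 in ATF6bKO, calls that were lost with the mean over its probes. Dvl2, which relays the receptor signal, fell by 1.50 in ATF6aKO and by 1.48 in ATF6bKO. Axin1, the scaffold of the destruction complex, fell by 1.36 in ATF6aKO and by 1.27 in ATF6bKO, and Dvl3 by 1.07 in ATF6aKO and by 1.29 in ATF6bKO. Ctnnb1, beta-catenin itself, measured 8.12 and 10.05 in ATF6aKO, 7.11 and 6.99 in ATF6bKO, against 10.64 and 7.19 in WT. The replicates of ATF6aKO and of WT were far apart, those of ATF6bKO close together, and the differences from WT were 0.17 ± 1.03 in ATF6aKO and -1.86 ± 1.03 in ATF6bKO (SE; limma adjusted p = 0.904 and 0.192).

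Of 10 beta-catenin target genes, 4 were lower and 0 higher in ATF6aKO, and 2 were lower and 0 higher in ATF6bKO. Over all genes 22.3% were called lower in ATF6aKO and 20.3% in ATF6bKO, so the ATF6bKO count is at the background. Axin2, the usual reporter of beta-catenin activity, measured 6.65 and 6.40 in ATF6aKO, 6.48 and 6.45 in ATF6bKO, against 7.90 and 8.14 in WT. All 4 knockout arrays lay well below both WT arrays. Axin2 fell by 1.50 in ATF6aKO (limma adjusted p = 0.00106) and by 1.55 in ATF6bKO (limma adjusted p = 0.00115), and these calls held in every setting except the authors' deposited table, where the values were -0.29 in ATF6aKO and 0.15 in ATF6bKO. Tnfrsf19 fell by 1.09 in ATF6aKO and by 0.78 in ATF6bKO. Of 12 planar polarity and other genes of signalling without beta-catenin, 2 were higher and 3 lower in ATF6aKO, and 2 higher and 1 lower in ATF6bKO. Prickle1 rose by 0.80 in ATF6aKO and by 0.58 in ATF6bKO, and Celsr3 by 0.50 in ATF6aKO and by 0.76 in ATF6bKO. Nfatc1 fell by 0.83 in ATF6aKO and by 0.74 in ATF6bKO. Vangl2 fell by 0.60 in ATF6aKO and gave -0.29 in ATF6bKO (limma adjusted p = 0.208). In ATF6aKO the mean over its probes gave 0.62, the opposite sign, so the direction of Vangl2 there depended on the probe. Between the knockouts limma called 0 genes in any of these lists.

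Among the pathway genes named, those called in ATF6aKO whichever array was left out were Wnt9b, Dkk4, Fzd2, Ptk7, Axin1, Gsk3a, Gsk3b, Dvl2, Dvl3, Btrc, Axin2, Tnfrsf19 and Prickle1. In ATF6bKO they were Wnt9b, Fzd2, Ptk7, Axin1, Btrc, Dvl2, Dvl3 and Axin2. The other named calls were lost without at least 1 of the arrays. Leaving out arrays does not test the choice of probe. With the mean over probes, Fzd2 lost its call in each knockout and Gsk3b its call in ATF6aKO. The authors' deposited table turned the sign of Dvl2 (1.85 in ATF6aKO and 1.70 in ATF6bKO), and likewise of Ptk7, Dvl3, Znrf3 and Wnt7b in each knockout and of Axin2, Btrc and Prickle1 in ATF6bKO. Its knockout columns follow the green channel, not the labelled red channel, so these signs are not read as knockout expression.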

How the data were processed

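Expression was measured on Agilent arrays in 6 samples, 2 per genotype, from 150 ng of RNA amplified and labelled with Cy5, per the labels' protocols. The deposited scanner files hold spot intensity values and, per the submitters' processing notes, came from Agilent Feature Extraction 10.7.1.1. Knockout arrays had 2 channels per the file headers, of which the red (Cy5) was used, and WT arrays had 1 channel, named green. That name differs from the Cy5 labelling given for the samples, and which dye the WT channel held is not known here. The authors' deposited value table holds log2 values, whose centring per probe and choice of constants are unknown; its column medians were 0.2 and 0.1 in ATF6aKO, 0 and 0.227 in ATF6bKO, against -0.5 and -0.5 in WT. It served only as an alternative.

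Median spot intensities were corrected with normexp (limma 3.58.1, R 4.3.3, offset 50) on the median background, taken to log2 and quantile normalised, without control and outlier spots. The median replaced the mean spot intensity named in the design, because the files give the median. Symbols came from a GRCm38.p6 gene table by RefSeq accession, and 29099 probes had no match. Probes entered the tests where both arrays of 1 genotype or more showed them well above background, and each gene was represented by its brightest such probe. The 3 comparisons were fitted over 6 arrays with lmFit and eBayes, with Benjamini-Hochberg adjustment over 19122 genes and a threshold of 0.05. The procedure was tested on simulated data.

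The members, gene lists, markers and tests were chosen with earlier results of these data known. Named genes are all members, the up to 2 largest rises and falls past the threshold of each pathway list in each comparison with WT, and Ctnnb1, Lrp5, Lrp6, Ror2, Axin2, Wls, Sost, chondrocyte markers, Atf6 and Atf6b. A bound on a fold sets the brighter mean against the dim probe's own signal or, where higher, the array's lowest signal among probes well above background. Alternatives were other scaling, the processed signal, the authors' table, other probe rules and filters, a trended variance, the replicate block and each array left out. Precision is limited by having 2 arrays per genotype.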

Additional observations from a re-analysis of the deposited data

How the results depend on the processing

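Of the 10 genes, 4 were called in ATF6aKO and 3 in ATF6bKO against WT. Leaving out 1 array gave 1 to 4 in ATF6aKO, lowest without ATF6aKO replicate 2, and 1 to 3 in ATF6bKO, lowest without ATF6bKO replicate 1 or 2. Over all genes the same gave 4682 to 8061 calls in ATF6aKO (8157 with all arrays), 3080 to 7019 in ATF6bKO (7190 with all arrays), and 0 to 8 between the knockouts. A genotype left with 1 array was assumed to vary like the others. The processed signal and the authors' deposited table each called 5 of the 10 genes in ATF6bKO. For the processed signal the cause was not tested. On knockout arrays the deposited values track the green signal, not the red. Of the 40 green spots of these genes there, 0 were well above background. The calls from the deposited table are therefore not read as knockout expression. Frzb in ATF6bKO, 0.79 and not called as reported, was called under 75th percentile scaling (1.06), with the processed signal (1.33), in the authors' deposited table (1.80), when every array had to lie well above background (limma adjusted p = 0.0457), with a trended variance (0.0390) and without either ATF6aKO array (0.0147). Wif1 in ATF6aKO was called with that filter (0.0494) and with the trended variance (0.0436). Dkk3 in ATF6bKO was called with the processed signal (-1.38, limma adjusted p = 0.0311). Its knockout spots were not well above background, so no fall is claimed. The authors' deposited table called 6 of the 10 in ATF6aKO, among them Sfrp5 (limma adjusted p = 0.00320), Dkk1 (0.0295) and Dkk3 (0.0229), and in ATF6bKO it called Wnt4 (0.0120), Sfrp5 (0.00313) and Dkk3 (0.0112).

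Replicate numbers did not pair the arrays: replicate differences correlated at r = -0.156 between ATF6aKO and ATF6bKO, -0.0743 between ATF6aKO and WT, and 0.197 between ATF6bKO and WT. With the replicate number as a block, 7594, 6630 and 0 genes and 3, 3 and 0 of the 10 were called in ATF6aKO against WT, ATF6bKO against WT and ATF6aKO against ATF6bKO. The block ended the call of Wnt4 in ATF6aKO (limma adjusted p = 0.0549) and changed no other of the 10.

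Some differences that were not called as reported changed sign. With 75th percentile scaling they were Dkk1 (0.066) and Dkk3 (0.27) in ATF6aKO, and Sfrp5 (-0.039), Dkk1 (0.22) and Dkk3 (0.26) in ATF6bKO. With the processed signal they were Sfrp1 (-0.24) and Sfrp5 (-0.10) in ATF6bKO, and Wnt5a (-0.029) and Dkk1 (0.010) between the knockouts. In the authors' deposited table they were Dkk1 (1.30), Dkk3 (3.42) and Wif1 (0.85) in ATF6aKO; Sfrp5 (-2.30), Dkk1 (1.05), Dkk3 (4.27) and Wif1 (0.70) in ATF6bKO; and Wnt4 (0.60), Wnt5a (-0.031), Wnt5b (-1.10), Frzb (-0.15), Dkk1 (0.25), Dkk3 (-0.85) and Wif1 (0.15) between the knockouts. With 1 array left out, Sfrp5 ranged from -0.16 to 0.096 in ATF6aKO and from -0.031 to 0.049 in ATF6bKO, and between the knockouts Wnt4 ranged from -0.27 to 0.059, Frzb from -0.056 to 0.80 and Sfrp5 from -0.17 to 0.087. The causes were not tested, and the signs from the deposited table carry the limit given above for its knockout values.

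Under 75th percentile scaling the median of all genes was 0.13 in ATF6aKO and 0.16 in ATF6bKO (-0.03 and -0.05 as reported), with 5163 genes higher and 3601 lower in ATF6aKO (3886 and 4271 as reported) and 4828 higher and 3053 lower in ATF6bKO (3313 and 3877 as reported). The authors' deposited table gave 6893 higher and 2824 lower in ATF6aKO, and 6964 higher and 2930 lower in ATF6bKO. Dkk3 was not well above background on any knockout array.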
